A study of Mus musculus with 33 samples.

Results

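Mitochondrial DNA of the mouse encodes messenger RNAs (mRNAs), ribosomal RNAs and transfer RNAs, and each deposited table of normalized counts held 13 rows with a symbol that starts with mt-, of 32245 rows in all. Members were chosen by that symbol alone. All 13 are mRNAs. The GENCODE M21 annotation of GRCm38 lists 13 protein-coding genes, 2 ribosomal RNA genes and 22 transfer RNA genes on mitochondrial DNA. The tables at hand had 0 rows for the ribosomal RNA genes and 0 rows for the transfer RNA genes, so these classes are not analysed here.

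The samples are mouse cardiomyocytes. Nuclear RNA is the molecule named in the labels. The labels give the knockout of Ptpmt1, alone or with a second mutation, as specific to cardiomyocytes. PTPMT1 is a phosphatase of the inner mitochondrial membrane that is needed to make cardiolipin. The FST table held 3 libraries each of control, Eif2a mutant alone, Ptpmt1 knockout alone and the Ptpmt1 knockout with the Eif2a mutation, called the Ptpmt1 Eif2a double here. The PHT table held 2 controls, 2 libraries labelled Hri knockout alone (given as restricted to cardiomyocytes), 3 labelled Ptpmt1 knockout alone and 2 labelled as both, called the Ptpmt1 Hri double. The PTGC table held 3 controls and 3 libraries labelled as knockout of both Ptpmt1 and Gcn2, called the Ptpmt1 Gcn2 double, with no single knockout. The sources used here do not give the genotype of the control animals, the Cre driver, ages, pooling or the meaning of the line names. A further line with the Ptpmt1 knockout alone is not analysed here.

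The 13 mRNAs encode core subunits of the respiratory chain. The mt-Nd genes encode subunits of complex I (NADH dehydrogenase), mt-Cytb encodes cytochrome b of complex III, the mt-Co genes encode the catalytic core of complex IV (cytochrome c oxidase), and mt-Atp6 and mt-Atp8 encode subunits of ATP synthase. Mitochondrial DNA is transcribed inside the organelle into long transcripts that cover many genes and are then cut, largely at the transfer RNAs between them. All but mt-Nd6 lie on 1 strand and share such a transcript, in which mt-Nd1 comes near the start and mt-Cytb at the end, while mt-Nd6 is read from the opposite strand. Copies of mitochondrial DNA also sit in nuclear chromosomes, where most are inactive pseudogenes.

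One such copy bears on how these rows can be read, so its sequence is shown first. On GRCm38 the genes mt-Co2, mt-Atp8, mt-Atp6, mt-Co3, mt-Nd3 and mt-Nd4l form 1 unbroken stretch of the mitochondrial map, from base 7013 to base 10173 (chrM:7013-10173, plus strand). Annotated pseudogenes on chromosome 1, minus strand, repeat much of it between 24611535 and 24616197. Gm28661 matches bases 1 to 681 of the 684 bases of mt-Co2 with 0 mismatches, and the first 60 bases, from the GENCODE transcripts, read the same in both:
mt-Co2, bases 1 to 60: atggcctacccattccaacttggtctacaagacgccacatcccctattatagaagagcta
Gm28661, bases 1 to 60: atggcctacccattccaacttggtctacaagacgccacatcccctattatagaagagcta
At each end of the stretch the copy runs into the neighbouring gene, and capitals mark the copied letters at these borders:
mt-Co1, bases 1037 to 1096: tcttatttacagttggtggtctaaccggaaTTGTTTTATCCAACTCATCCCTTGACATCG
mt-Nd4, bases 847 to 906: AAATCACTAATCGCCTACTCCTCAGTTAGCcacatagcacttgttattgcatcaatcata
The copy of mt-Co1, Gm29216, holds bases 1067 to 1545 of 1545 with 0 mismatches, and that of mt-Nd4, Gm28439, holds bases 1 to 876 of 1378 with 0 mismatches.

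Counted as stretches of 50 bases, 100% of those in mt-Co2 also occurred in another annotated transcript. The share was 99.9% in mt-Co3, 99.5% in mt-Atp6, 98.8% in mt-Nd4l and 98% in mt-Nd3. It was 62.2% in mt-Nd4, 51.1% in mt-Co1, 8.19% in mt-Nd2 and 7.61% in mt-Nd5, and 0% in mt-Nd1, mt-Nd6 and mt-Cytb. It was also 0% in mt-Atp8, which has no annotated transcript as its copy but lies within the same stretch. The pseudogenes that repeat the stretch were not among the rows of the tables at hand.

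The 6 genes of this stretch were near 0 in FST and PTGC, beside neighbours of high value. In the 12 FST libraries mt-Co2 lay between 0 and 11.7 normalized counts (median 4.42), while mt-Co1, its neighbour on the map, lay between 20439 and 53307 (median 42426). In FST mt-Co3 reached at most 5.07, mt-Nd3 4.68, mt-Atp6 3.79 and mt-Nd4l 0.796, and mt-Atp8 was 0 in 12 of 12 libraries. In PTGC mt-Co2 lay between 6.09 and 12.8, and mt-Atp8 was 0 in 6 of 6 libraries. PHT differed: mt-Co2 lay between 631 and 919, mt-Co3 between 387 and 574, mt-Atp6 between 243 and 403, mt-Nd3 between 57.5 and 141, mt-Nd4l between 42.4 and 90.9 and mt-Atp8 between 4.32 and 28.99. The 6 genes together made up 0.00360% to 0.0175% of the mitochondrial mRNA signal in FST, 0.00745% to 0.0118% in PTGC and 0.647% to 1.07% in PHT. The tables were normalized separately, but each of these shares is taken within a library. The sources used here do not say how reads were assigned between copies, and whether this sets the levels was not tested. These 6 rows are therefore not read as levels of their mRNAs, and mt-Co1 and mt-Nd4, which share over 50% of their stretches, are uncertain.

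**Figure D1:**
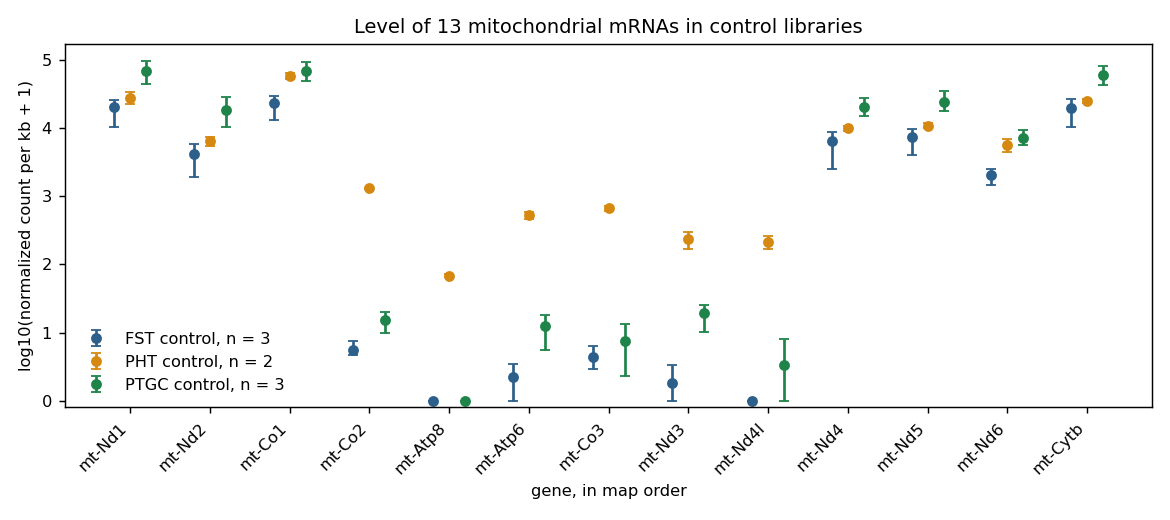
Normalized count per kb of each of the 13 mRNAs in control libraries, as log10(value + 1), in map order. Points are means and bars run from the lowest to the highest library. The stretch from mt-Co2 to mt-Nd4l lies near 0 in FST and PTGC and in between in PHT, and the 7 other genes lie higher in each table.

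Per kb of whole transcript, the highest means among the other 7 mRNAs were those of mt-Co1, mt-Nd1 and mt-Cytb. In FST controls, levels per kb were 23588 ± 8999 for mt-Co1, 20203 ± 8518 for mt-Nd1 and 20113 ± 8665 for mt-Cytb (SD, n = 3), with overlapping ranges. This order depends on the length used. Per kb outside the stretches shared with another transcript, mt-Co1 was at 93925 ± 35834 in FST controls (52678 to 117392), above the highest mt-Nd1 control at 25868 and the highest mt-Cytb control at 27042, and mt-Nd4 was at 17977 ± 9516 (SD, n = 3). Whether reads of the shared part were counted was not tested. Per kb of whole transcript, the next levels were 7471 ± 3015 for mt-Nd5, 6549 ± 3467 for mt-Nd4 and 4243 ± 2030 for mt-Nd2, whose ranges overlapped. The lowest was mt-Nd6, at 2052 ± 544 per kb. In PHT controls mt-Co1 stood clear of the rest, at 52340 and 64507 per kb, against 22663 and 33469 for mt-Nd1 and 23272 and 26658 for mt-Cytb. In PTGC controls the means per kb were 69955 ± 22189 for mt-Co1, 69533 ± 26127 for mt-Nd1 and 61121 ± 20141 for mt-Cytb (SD, n = 3), again with overlapping ranges, while mt-Co1 was at 278556 ± 88354 per kb outside the shared stretches.

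Depth ranged from 1887978 to 12583868 reads in genes in FST, 10739569 to 19405261 in PHT and 10795644 to 19326112 in PTGC. The reads on the 13 rows ranged from 27749 to 438240 per library. Ptpmt1 itself was lower in every library labelled as its knockout, at 31.3 to 49.2 normalized counts in FST against 149.7 to 175 in the others, 40.0 to 78.1 against 241 to 289 in PHT, and 66.1 to 74.5 against 288 to 349 in PTGC. Eif2s1, the gene of the eIF2 alpha subunit, is altered and not removed by a point mutation, and its value checks no label. Eif2ak4 (Gcn2) overlapped between PTGC doubles (313 to 386) and controls (251 to 491). Eif2ak1 (Hri) was 389 and 416 in Hri knockouts and 476 and 545 in the Ptpmt1 Hri doubles, against 548 and 590 in PHT controls and 517 to 630 in PHT Ptpmt1 knockouts, which the doubles overlapped. Whether the deleted parts of these genes are covered by the counts is not given, so second mutations are named as labelled. The 13 cardiomyocyte markers all had reads and made up 5.66% to 8.62% of a library. Erythroid markers made up 0.0727% to 0.890%, fibroblast markers 0.114% to 0.291%, endothelial markers 0.0871% to 0.118% and mural markers 0.0762% to 0.166%. Epicardial markers made up 0.0179% to 0.0281%, and macrophage markers at most 0.00957%. Fibroblast markers were at 0.148% to 0.291% in FST Ptpmt1 knockouts and 0.135% to 0.164% in FST controls, and their part in the results was not tested. No marker of the 7 cell types listed was at 0 in all libraries of a table. Libraries with a male expression pattern numbered 1 of 3 FST controls against 3 of 3 Ptpmt1 knockouts, and 0 of 2 PHT controls against 2 of 2 in both groups with Hri knockout. A pair of FST libraries, Eif2a mutant 1 and Ptpmt1 Eif2a double 2, stood apart, with 15157 and 15336 genes detected and at least 17567 in each other library.

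The 13 mRNAs made up between 0.675% and 3.42% of a library's normalized counts. In FST the share was 1.70%, 1.55% and 0.675% in controls, 1.59%, 1.43% and 1.39% in Eif2a mutants, 1.66%, 1.79% and 1.65% in Ptpmt1 knockouts and 1.46%, 1.47% and 1.42% in Ptpmt1 Eif2a doubles. Control 3 stood far below the other FST libraries, control 1 lay among the Ptpmt1 knockouts and control 2 below them. The mean difference between Ptpmt1 knockout and control was 0.391 percentage points with all controls and 0.0726 without control 3. The difference between double and control changed sign, from 0.139 to -0.179, and that between Eif2a mutant and control from 0.158 to -0.160. Control 3 also had the lowest share of nuclear-retained RNAs in the line, 1.01% against 1.22% or more elsewhere, and fewer erythroid transcripts than the other controls, 0.0862% against 0.233% and 0.306%. Their part in the result was not tested. In bulk samples fewer cells, less RNA per cell and fewer transcripts per mitochondrion cannot be told apart. The labels name nuclear RNA, and the amount of mitochondrial RNA carried into each preparation cannot be told apart from these either.

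In PHT the share was 1.25% and 1.58% in controls, 1.68% and 1.69% in Hri knockouts, 1.82%, 1.76% and 1.87% in Ptpmt1 knockouts, and 1.56% and 1.61% in Ptpmt1 Hri doubles. The 3 Ptpmt1 knockouts were the highest of the 9 libraries, and the doubles lay below both single knockouts. The mean in Ptpmt1 knockouts was 1.82% ± 0.0557 (SD, n = 3), against 1.42% ± 0.234 in controls and 1.59% ± 0.0351 in doubles (SD, n = 2 each). The difference between Ptpmt1 knockout and control was 0.399 percentage points with both controls, 0.233 without control 1 and 0.565 without control 2, and that between double and control was 0.171, 0.00547 and 0.337. Erythroid markers made up 0.403% to 0.479% of PHT controls and 0.0727% to 0.347% of Ptpmt1 knockouts. Over the 10 markers the median log2 fold change was -1.11 and 0 were called, against 0.301% of all genes. Their part in the difference was not tested.

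In PTGC the share was 2.41%, 1.79% and 3.42% in controls and 1.79%, 1.54% and 1.79% in Ptpmt1 Gcn2 doubles. The groups touched, since control 2 lay just below the highest double. The difference between double and control was -0.831 percentage points, and -0.392 without control 3. Control 3, with the highest share, also had the lowest shares of cardiomyocyte markers (6.74% against 7.90% or more) and of nuclear-retained RNAs (0.810% against 1.02% or more) in that line, and whether these are linked was not tested.

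**Figure D2:**
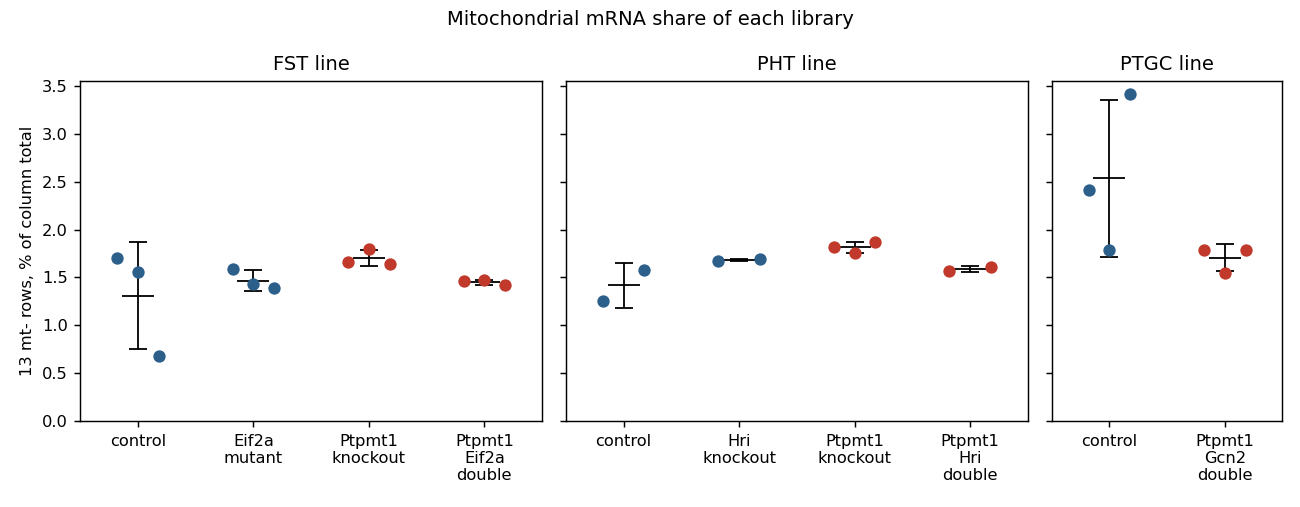
Share of the 13 mt- rows in each library's total of normalized counts, in percent, by group. Points are libraries (red, labelled as lacking Ptpmt1; blue, the others), and bars show mean ± SD. FST control 3 at 0.675% and PTGC control 3 at 3.42% lie apart from the rest of their lines.

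Single mRNAs were tested with limma against all genes of a table. Genes entered the test with a value of 10 or more in 3 libraries (2 in PHT, the size of its smallest group), and were called at an adjusted p under 0.05. This left 8 of the 13 in FST and PTGC, the 7 outside the low stretch and mt-Co2, and 13 of 13 in PHT. No member was called in any of the 13 comparisons, nor by edgeR on the recovered reads, while DESeq2 called some in PHT and PTGC. Where groups stand apart below in the value of a single mRNA, such separation was not counted over all genes.

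In FST, mt-Co1 was 45548, 43341 and 20439 normalized counts in controls, 40424, 39244 and 37947 in Eif2a mutants, 51751, 53307 and 48484 in Ptpmt1 knockouts and 41510, 44779 and 40809 in doubles. The knockouts were above all other groups. The log2 fold change of mt-Co1 between Ptpmt1 knockout and control was 0.58 ± 0.21 (SE, adjusted p = 0.249). For mt-Nd1, a core subunit in the membrane arm of complex I, it was 0.61 ± 0.24 (adjusted p = 0.281), and for mt-Nd4, another membrane-arm subunit, 0.72 ± 0.31 (adjusted p = 0.321). The corresponding value was 0.50 ± 0.28 for mt-Nd2, 0.23 ± 0.22 for mt-Nd5, 0.09 ± 0.24 for mt-Cytb and -0.34 ± 0.28 for mt-Nd6. The median of the 7 was 0.50, beside -0.01 over all genes tested, and without control 3 it was 0.01. Without that control mt-Cytb was at -0.33 and mt-Nd5 at -0.17, so their sign rests on it, and edgeR and DESeq2 gave mt-Cytb -0.02 with all libraries.

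Against the Eif2a mutant, mt-Cytb was lower in the Ptpmt1 Eif2a double by a log2 fold change of -0.57 ± 0.24 (adjusted p = 0.587) and mt-Nd6 by -0.92 ± 0.28 (adjusted p = 0.545). Medians of the 7 were 0.39 for Eif2a mutant against control, 0.30 for double against control, -0.14 for double against Ptpmt1 knockout, 0.02 for double against Eif2a mutant and -0.47 for the interaction, which is the effect of Ptpmt1 loss with the second mutation minus that without it. Without control 3 the first of these was -0.10 and the second was -0.13, so the sign rests on that library. Of the 8 tested members 0 were called in each FST comparison. Of all genes, 0.504% were called for Ptpmt1 knockout against control, 0.036% for Eif2a mutant against control, 0.144% for double against control, 0.878% for double against Ptpmt1 knockout, 0.0072% for double against Eif2a mutant and 0.0216% for the interaction. At an unadjusted p under 0.05 there were, in the same order, 3, 0, 1, 0, 2 and 0 members, against 13.4%, 7.97%, 10.1%, 13.8%, 8.14% and 7.06% of all genes.

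In PHT, mt-Nd2, a further membrane-arm subunit of complex I, was 5784 and 7709 normalized counts in controls, 9333 and 7442 in Hri knockouts, 10179, 9077 and 10247 in Ptpmt1 knockouts and 10062 and 10177 in Ptpmt1 Hri doubles. Every library without Ptpmt1 was above both controls, and Hri knockout 1 lay among them. The log2 fold change of mt-Nd2 between Ptpmt1 knockout and control was 0.56 ± 0.12 (limma adjusted p = 0.101), and DESeq2 called it (0.54, adjusted p = 0.000901). For mt-Nd1 the limma value was 0.56 ± 0.14 (adjusted p = 0.211), and DESeq2 called it too (0.54, adjusted p = 0.00138). For mt-Co1 it was 0.38 ± 0.15 (adjusted p = 0.972), with a DESeq2 call at 0.38 (adjusted p = 0.00538). The 7 were all positive, with mt-Cytb at 0.17 ± 0.10 and mt-Nd5 at 0.15 ± 0.10, and a median of 0.38 beside 0.00 over all genes. Without control 2, limma called mt-Nd1 (0.84), mt-Nd2 (0.76) and mt-Nd6 (0.82), against 0.154% of all genes in that fit. Without control 1, the library with the lower share, the median was 0.21.

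Between the Ptpmt1 Hri double and the Ptpmt1 knockout, 6 of the 7 mRNAs had a negative log2 fold change; limma called 0 and DESeq2 called mt-Cytb alone. The values of mt-Cytb were 25733 and 25723 normalized counts in doubles, 31942, 31421 and 32539 in Ptpmt1 knockouts, 35203 and 32820 in Hri knockouts and 26624 and 30496 in controls. The doubles were below all 7 other PHT libraries, a separation that was not counted over all genes. The log2 fold change of mt-Cytb was -0.31 ± 0.10 against the Ptpmt1 knockout (limma adjusted p = 0.359, DESeq2 adjusted p = 0.0105) and -0.40 ± 0.11 against the Hri knockout (limma adjusted p = 0.754, DESeq2 adjusted p = 0.00337). The interaction for mt-Cytb was -0.57 ± 0.15 (limma adjusted p = 0.569, DESeq2 adjusted p = 0.000694), and DESeq2 also called that of mt-Nd5 (-0.54, adjusted p = 0.0153) and mt-Nd4 (-0.51, adjusted p = 0.0414). Erythroid markers were higher in the doubles, at 0.5004% and 0.890% of a library, than in Ptpmt1 knockouts, at 0.0727% to 0.347%. Of these 10 markers, 1 was called higher by limma, Hbb-bs, against 0.327% of all genes called. Their part in the differences was not tested.

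DESeq2 called mt-Nd2 for the Ptpmt1 Hri double against control (0.59, adjusted p = 0.00622), where limma gave 0.60 ± 0.13 (adjusted p = 0.321). Medians of the 7 were 0.27 for Hri knockout against control, 0.19 for double against control, -0.28 for double against Ptpmt1 knockout, -0.27 for double against Hri knockout and -0.52 for the interaction. Without control 1 the double against control had a median of -0.12. Of 13 tested members limma called 0 in each PHT comparison. Of all genes it called 0.301% for Ptpmt1 knockout against control, 0.02% for Hri knockout against control, 0.0267% for double against control, 0.327% for double against Ptpmt1 knockout, 0.02% for double against Hri knockout and 0.12% for the interaction. At an unadjusted p under 0.05 there were, in the same order, 5, 4, 3, 5, 4 and 4 members of 13, against 4.79%, 3.24%, 6.58%, 8.29%, 5.83% and 4.64% of all genes. Of the 7, only mt-Nd1 and mt-Nd2 were among the 3 for double against control. For double against Ptpmt1 knockout only mt-Cytb, mt-Nd4, mt-Nd5 and mt-Nd6 were among the 5. The rest of these counts is of the low stretch, not read as levels. DESeq2 called 3, 1, 1, 1 and 3 members for the comparisons other than Hri knockout against control, against 0.461%, 0.0802%, 0.702%, 0.0668% and 0.254% of all genes.

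In PTGC every one of the 7 mRNAs had a lower mean in the Ptpmt1 Gcn2 double than in control. The values of mt-Cytb were 64380, 50159 and 95230 normalized counts in controls and 41280, 37382 and 43426 in doubles. These groups did not overlap, and such separation was not counted over all genes. The log2 fold change of mt-Cytb was -0.73 ± 0.20 (limma adjusted p = 0.208, DESeq2 adjusted p = 0.00149), with -0.61 ± 0.20 for mt-Nd5 and -0.55 ± 0.18 for mt-Nd4, which DESeq2 called as well (adjusted p = 0.0268 and 0.0374). For mt-Nd2 it was -0.69 ± 0.27, for mt-Nd1 -0.47 ± 0.23, for mt-Co1 -0.45 ± 0.21 and for mt-Nd6 -0.37 ± 0.19. The median was -0.55, beside 0.00 over all genes, and -0.30 was the value nearest to 0 with a library left out. Of 8 tested members limma called 0, against 0.743% of all genes; 4 had an unadjusted p under 0.05, against 11.5%, and DESeq2 called 3, against 1.27%. Without control 2, the control with the lowest share, limma called 5 of them, mt-Nd1, mt-Nd2, mt-Nd4, mt-Nd5 and mt-Cytb, all lower, against 3.82% of all genes in that fit. Erythroid markers made up 0.161% to 0.442% of PTGC controls and 0.137% to 0.184% of doubles, and their part in these differences was not tested.

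**Figure D3:**
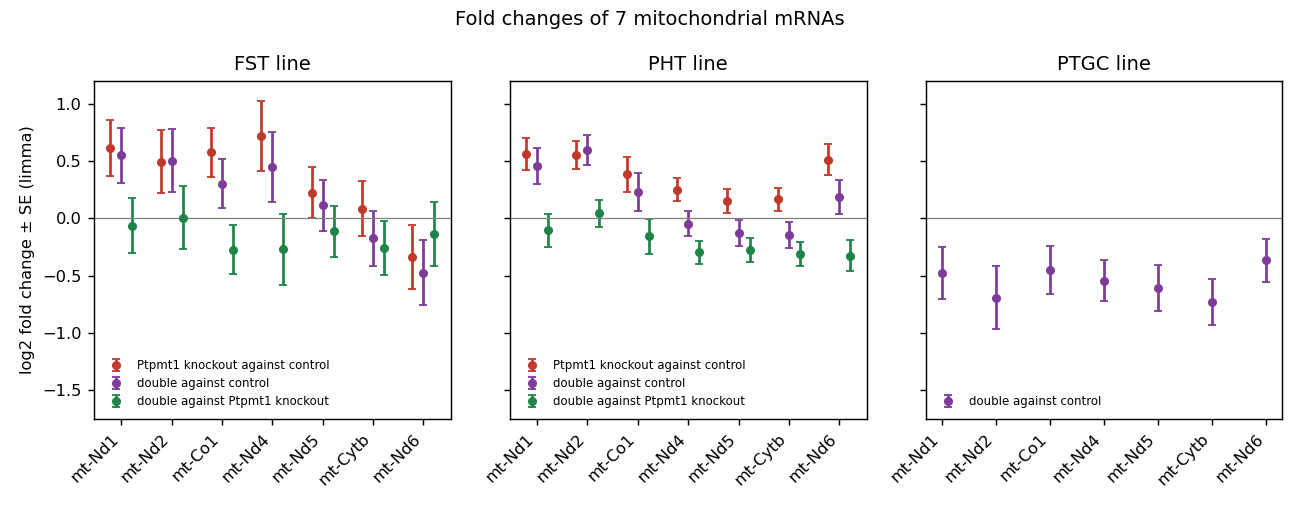
Log2 fold changes (limma, on log2(value + 1)) of the 7 mRNAs outside the low stretch, with SE bars. In FST and PHT most lie above 0 for Ptpmt1 knockout against control, and in PTGC all 7 lie below 0 for double against control; none was called, and without control 3 the FST median is 0.01.

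Within the mitochondrial signal, mt-Cytb took a lower share in the libraries without Ptpmt1 of each table. Here and below, the PTGC libraries without Ptpmt1 are all labelled as lacking Gcn2 too, so these losses cannot be told apart in PTGC. A share within a library does not depend on the scaling of the table. The pairs described here were singled out after their values had been seen, so no test is given. The share of mt-Cytb in the mitochondrial mRNA signal was 15.3% to 17.3% in the 6 FST libraries without Ptpmt1 and 20.7% to 23.8% in the 6 others. In PHT it was 11.8% to 13.5% in 5 libraries without Ptpmt1 against 14.4% to 15.7% in 4 others. In PTGC it was 17.9% to 18.5% in 3 against 20.3% to 21.2% in 3. These ranges did not overlap in any of the 3 tables. The share of mt-Nd1 was higher without Ptpmt1 in FST, at 19.4% to 22.9% against 15.9% to 18.4%, and in PHT, at 15.8% to 17.0% against 12.8% to 15.1%. In PTGC it overlapped, at 19.7% to 21.5% against 18.3% to 20.0%. In PHT the shares of mt-Nd4 and mt-Nd5 were lower as well, at 6.15% to 6.92% and 8.33% to 9.60% without Ptpmt1. The other PHT libraries were at 7.02% to 7.38% and 10.3% to 10.7%. In PTGC the share of mt-Co1 was higher, at 33.7% to 34.5% against 30.7% to 33.2%. Shares of a whole are not independent, and such separation was not counted over all genes.

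The ratio of mt-Cytb to mt-Nd1, neither of which has a nuclear copy among the annotated transcripts, was above 1 in 12 of the 13 libraries with Ptpmt1 and below 1 in 14 of 14 without it. The values are not scaled to length (1144 bases for mt-Cytb, 957 for mt-Nd1), so 1 does not mark equal levels per kb. In FST it was 1.25, 1.125 and 1.19 in controls, 1.34, 1.49 and 1.34 in Eif2a mutants, 0.840, 0.818 and 0.810 in Ptpmt1 knockouts and 0.733, 0.670 and 0.758 in Ptpmt1 Eif2a doubles. The doubles lay below the Ptpmt1 knockouts, and the Eif2a mutants above the controls. In PHT it was 1.23 and 0.952 in controls, 1.09 and 1.05 in Hri knockouts, 0.789, 0.853 and 0.821 in Ptpmt1 knockouts and 0.731 and 0.692 in Ptpmt1 Hri doubles. Here too the doubles were lowest, while Hri knockouts lay between the controls. In PTGC it was 1.02, 1.16 and 1.02 in controls and 0.830, 0.923 and 0.919 in Ptpmt1 Gcn2 doubles. FST control 3 and PTGC control 3, which stood apart in the total share, lay among the other controls in this ratio.

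**Figure D4:**
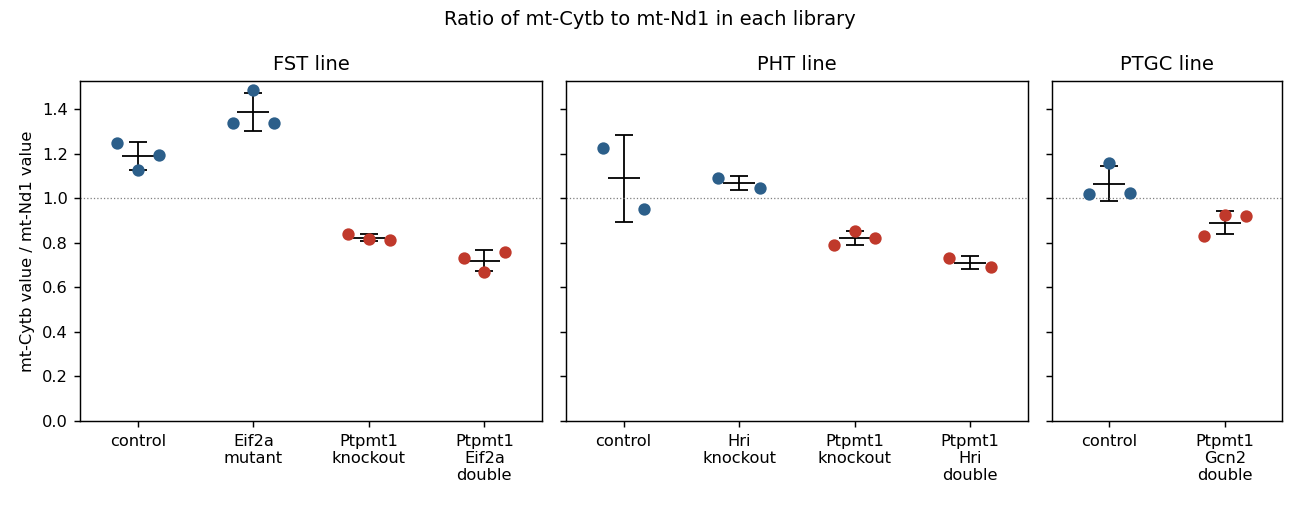
Ratio of the mt-Cytb value to the mt-Nd1 value in each library, by group, with mean ± SD. Points are libraries (red, labelled as lacking Ptpmt1; blue, the others). The red points lie between 0.670 and 0.923 and the blue ones between 0.952 and 1.49.

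Among the 21 pairs that the 7 mRNAs form, libraries with and without Ptpmt1 did not overlap in ratio for 7 pairs in FST, 10 in PHT and 4 in PTGC. The same count over all 85905 pairs of the 415 genes that were at least as high as mt-Nd6 in each table, these 7 included, was 3.9% in FST, 1.89% in PHT and 22.9% in PTGC. The PTGC share is thus near its background. Pairs that separated the groups in the same direction in all 3 tables numbered 2 of 21, mt-Nd1 over mt-Cytb and mt-Co1 over mt-Cytb, against 0.0116% of all pairs. The ratio of mt-Co1 to mt-Cytb was 2.16 to 2.38 without Ptpmt1 against 1.29 to 1.72 with it in FST, 3.58 to 4.20 against 2.95 to 3.27 in PHT, and 1.85 to 1.93 against 1.50 to 1.63 in PTGC. All 17 separated pairs of FST and PHT had the gene nearer the start of the transcript, mt-Nd1 side, relatively higher without Ptpmt1. Some of these pairs recur in both lines, and the pairs share genes, so they are not independent. Many use mt-Co1 or mt-Nd4, whose values are uncertain. The direction was noted after the values were seen and was not counted over all pairs.

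Along the shared transcript, mt-Cytb at its end had a negative relative change in each comparison of libraries without and with Ptpmt1. This change was taken per gene as the log2 value minus the mean of the 6 mRNAs of that strand outside the low stretch, so the 6 differences sum to 0 and are not independent. For Ptpmt1 knockout against control it was 0.16 for mt-Nd1 and -0.37 for mt-Cytb in FST, and 0.22 and -0.18 in PHT. For double against control it was 0.26 and -0.46 in FST, 0.30 and -0.31 in PHT, and 0.11 and -0.15 in PTGC. The genes between did not fall in steady order. In FST the highest value for the Ptpmt1 knockout was that of mt-Nd4, at 0.27, with mt-Nd2 at 0.04. In PHT mt-Nd5 was the lowest for the Ptpmt1 knockout, at -0.19, and mt-Nd2 the highest for the double, at 0.44. In PTGC mt-Nd2 was at -0.11 and mt-Co1 at 0.13. Spearman's rho with gene order over the 6 genes, a description with no test since the genes share libraries and sum, was -0.6 and -0.94 in FST and -0.94 and -0.94 in PHT for these comparisons, and -0.54 in PTGC. The Ptpmt1 knockout and the double share their controls within a line. For the doubles against the second mutant alone it was -0.83 in FST and -0.94 in PHT. For the second mutation alone against control it was 0.26 for the Eif2a mutant and -0.49 for the Hri knockout, where all 6 relative changes lay between -0.04 and 0.06.

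**Figure D5:**
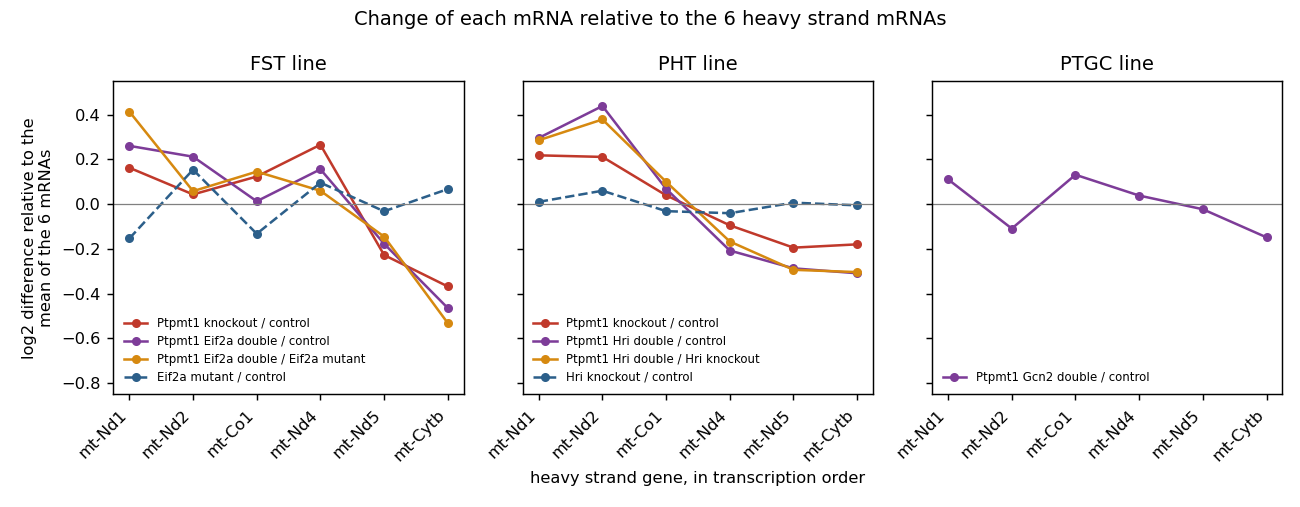
Log2 difference of each mRNA relative to the mean of the 6 mRNAs of the shared strand outside the low stretch, in transcription order, for each comparison in the legend. Solid lines are comparisons with and without Ptpmt1 and dashed lines are the second mutation alone; the solid lines end below 0 at mt-Cytb in all 3 panels.

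The mRNA read from the opposite strand is mt-Nd6, a subunit of complex I. In FST it was 1316, 1120 and 759 normalized counts in controls, 1601, 1567 and 1132 in Eif2a mutants, 635, 599 and 1452 in Ptpmt1 knockouts and 783, 583 and 912 in Ptpmt1 Eif2a doubles. Ptpmt1 knockout 3 stood far above the other 2 knockouts. Without it, limma called mt-Nd6 lower in the knockout than in control, at -0.75 ± 0.21 (adjusted p = 0.0499), against -0.34 ± 0.28 (adjusted p = 0.665) with it. That fit without knockout 3 called 6.2% of all genes. In PHT mt-Nd6 was higher in Ptpmt1 knockouts (4528, 4002 and 3893) and Hri knockouts (4954 and 4184) than in controls (2346 and 3581), and 3264 and 3327 in doubles. The log2 fold change for mt-Nd6 was 0.51 ± 0.14 for Ptpmt1 knockout (adjusted p = 0.31), 0.65 ± 0.15 for Hri knockout (adjusted p = 0.599) and -0.98 ± 0.20 for the interaction (adjusted p = 0.127). Without PHT control 2 limma called all 3 of these, at 0.82, 0.96 and -1.28 (adjusted p = 0.0155, 0.0405 and 0.0129), against 0.154%, 0.0134% and 0.0537% of all genes. In PTGC mt-Nd6 overlapped, at 2973, 3407 and 4954 in controls and 2283, 2973 and 3438 in doubles. The 3′ ends of mt-Nd5 and mt-Nd6 overlap on opposite strands, and the strand setting of the counting is not given.

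The nuclear genes that serve this system were described by lists. They covered transcription and replication of mitochondrial DNA, biogenesis regulators, RNA processing and stability, RNA modification, translation factors and tRNA synthetases of mitochondria. Of 98 tested genes on these 6 lists, 0 rose and 0 fell in each of the 13 comparisons by limma. Limma called between 0.0072% and 0.878% of all genes in these comparisons. The 0 calls of 98 are near that share and are no result about the lists. The median log2 fold change of the 98 genes lay between -0.07 and 0.02. Polrmt, the mitochondrial RNA polymerase, had a log2 fold change of -0.43 for Ptpmt1 knockout against control in FST and -0.05 in PHT, and 0.17 for the Ptpmt1 Gcn2 double against control. Tfam, which packages mitochondrial DNA and starts its transcription, was at 0.17, -0.04 and -0.12, and Lrpprc, which stabilizes mitochondrial mRNAs, at 0.18, 0.05 and 0.06. The PHT sign changed for Polrmt without control 1 or Ptpmt1 knockout 2, for Tfam without control 2 and for Lrpprc without Ptpmt1 knockout 3, and the PTGC sign for Polrmt without control 3. None of these 3 genes was called; they are named for their roles, outside the rule for named genes.

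Nuclear subunits of complexes I, III, IV and V, the partners of the 13 proteins, had 73 tested genes. For Ptpmt1 knockout against control in FST 0 rose and 1 fell, with a median of -0.18 beside 0.50 for the 7 mitochondrial mRNAs. The gene that fell was Atp5k, of ATP synthase (-0.74 ± 0.14, adjusted p = 0.0232), a call that was lost without any 1 of the 3 controls or without Ptpmt1 knockout 1. In PHT 1 rose and 0 fell, with a median of 0.04 beside 0.38. It was Cox6a2, a heart isoform of a complex IV subunit (1.25 ± 0.14, adjusted p = 0.000488). In PTGC, for double against control, 1 rose and 0 fell, with a median of -0.17 beside -0.55, and it was again Cox6a2 (1.04 ± 0.15, adjusted p = 0.00414; not called without double 3, at 0.95). In the other 10 comparisons 0 rose and 0 fell. Of all genes, limma called 0.504% for the FST Ptpmt1 knockout, 0.301% for the PHT one and 0.743% for the PTGC double, each against control. It called 0.0072% to 0.878% in the other 10. Counts of 0 or 1 among 73 genes lie near these shares and are no result about the subunits as a group. FST Ptpmt1 knockout 3, which stood apart in mt-Nd6, also had the highest share of complex I subunits among the FST libraries, 0.337%, against 0.279% and 0.293% in the other 2 knockouts. Of the nuclear-retained RNAs only Meg3 was called, higher in the Ptpmt1 Eif2a double than in control (0.50 ± 0.09, adjusted p = 0.0332) and than in the Ptpmt1 knockout (0.46 ± 0.09, adjusted p = 0.0249). Limma called 0.144% and 0.878% of all genes in these comparisons. The first call of Meg3 was lost without control 2 or 3, without Eif2a mutant 2 or 3, or without any 1 of the doubles, and the second without Ptpmt1 knockout 1 or 2 or any 1 of the doubles.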

How the data were processed

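RNA of mouse cardiomyocytes, named nuclear RNA in the labels, was sequenced after removal of ribosomal RNA with a KAPA kit, per the labels' protocols. The deposited values are a normalized signal, 1 per gene and library, in 3 tables that the authors normalized separately. The submitters' processing notes name STAR 2.5.3a, DESeq2 1.12.4 and mm10 without their roles. The read length, counter, annotation and strand setting of the counting are not given there or in the labels. Columns were matched by title, and 0 columns were left without a sample. Every signal value was a whole multiple of the worth of 1 read (100% within a tolerance of 0.1), which gave reads for the count tests.

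Tests used limma 3.58.1 (R 4.3.3) on log2(value + 1), with an intensity trend, all groups of a table in 1 fit, two-sided, with Benjamini-Hochberg adjustment over all genes tested: 13896 in FST, 14965 in PHT and 14128 in PTGC. Fold changes are on that log2 scale, which understates changes of low genes. The alternatives, fixed except for the ratio, were pseudocount 5, no filter, other scalings, only the groups compared, edgeR 4.0.16, DESeq2 1.42.0 and leaving out libraries. The fit was tested on simulated data with changes larger than those of the members. That test does not show whether changes of the members' size would be called. No label says that replicates are separate animals, so p-values measure the spread between these samples. Sex patterns were mixed in FST controls (1 of 3 male) and Ptpmt1 Eif2a doubles (2 of 3). They were also mixed in PHT Ptpmt1 knockouts (1 of 3) and both PTGC groups (2 of 3 each). The libraries of these groups are thus not all repeats of 1 sample. In the other groups, and between libraries of 1 sex, the spread may be technical. Replicate numbers follow accession order.

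Shared stretches of 50 bases were searched among 141730 other GENCODE M21 transcripts. Named genes are every mt- row, the targeted genes and every called gene of the nuclear lists, up to 6 by p per comparison. The members and lists were chosen with earlier results of these data known.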

Additional observations from a re-analysis of the deposited data

Results flagged for a closer look

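The double mutants of the 3 lines moved to opposite sides of their own control mean, which is why these values are listed. The second mutation, the controls and the table differ between lines, and the difference itself was not tested. The share of mitochondrial mRNA in the doubles was at least 1.08 times the control mean in FST and at least 1.10 times in PHT, and at most 0.705 times in PTGC. The same pattern held for mt-Nd1, at 1.27 or more in FST, 1.31 or more in PHT and 0.748 or less in PTGC, for mt-Nd2, at 1.24, 1.49 and 0.601, and for mt-Co1, at 1.1198, 1.14 and 0.743. For mt-Nd4 the doubles were at 1.14 or more in FST, but at 0.996 or less in PHT and 0.689 or less in PTGC. For mt-Nd6 they were at 1.10 or more in PHT, and at 0.857 or less in FST and 0.910 or less in PTGC. For the total share, the FST side rests on control 3, whose low share pulls down the control mean. So does that of mt-Nd4, whose FST doubles (11075, 10832 and 10297) lay below controls 1 and 2 (12147 and 11402). For mt-Nd1, FST double 3 (24490) lay between controls 1 and 2 (24756 and 23287). Doubles 1 and 2 (26267 and 28073) were above both. The FST doubles of mt-Nd2 (5761, 5675 and 5463) lay between controls 1 and 2 (5988 and 5211). For mt-Co1, FST double 2 (44779) lay between controls 1 and 2 (45548 and 43341), with doubles 1 and 3 (41510 and 40809) below both. The PHT side of the total share rests on control 1, without which the doubles, at 1.56% and 1.61%, lie on both sides of control 2 at 1.58%. For mt-Nd6 the PHT doubles (3264 and 3327) lay between the controls (2346 and 3581). In PTGC control 3 has the highest share, and for mt-Nd6 double 3 (3438) lay above controls 1 and 2 (2973 and 3407). Doubles 1 and 3 of PTGC lay above control 2 for mt-Nd1, at 49754 and 47232 against 43318. They did so too for mt-Nd2, at 11360 and 11191 against 10652, and for mt-Co1, at 79772 and 80342 against 75333.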

How the results depend on the processing

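No paired analysis was possible because the labels give no replicate numbers that groups share. Calls of members and medians of 7 mRNAs had 226 alternatives each, of which 215 and 217 stayed close to the value as reported. With DESeq2, 3 members were called for the Ptpmt1 knockout and for the interaction in PHT, 1 for each of 3 comparisons of the Ptpmt1 Hri double, and 3 in PTGC. With a library left out, calls ranged from 0 to 1 for the FST Ptpmt1 knockout (1 without knockout 3), from 0 to 3 for the PHT Ptpmt1 knockout, 0 to 1 for the Hri knockout and 0 to 1 for the PHT interaction (all without control 2), and from 0 to 5 in PTGC (without control 2). The cause was not tested. A fit of only the groups compared has no separate value for interactions, which use 4 groups, or for PTGC, which has 2.

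Medians with a library left out ranged from 0.0053 to 0.78 for the FST Ptpmt1 knockout, from -0.10 to 0.62 for the Eif2a mutant and from -0.13 to 0.51 for the double, each lowest without control 3. In PHT they ranged from 0.21 to 0.54 for the Ptpmt1 knockout, 0.11 to 0.40 for the Hri knockout and -0.12 to 0.38 for the double, each lowest without control 1 and highest without control 2. The difference in share from control, in percentage points, ranged in FST from 0.0726 to 0.587 for the Ptpmt1 knockout, -0.160 to 0.355 for the Eif2a mutant and -0.179 to 0.336 for the double. In PHT it ranged from 0.233 to 0.565, from 0.103 to 0.435 for the Hri knockout and from 0.00547 to 0.337 for the double. The log2 difference of the mt-Cytb to mt-Nd1 ratio between libraries without and with Ptpmt1, added after the data were seen, ranged from -0.78 to -0.70 in FST, -0.53 to -0.41 in PHT and -0.29 to -0.20 in PTGC with a library left out. Of 680 alternatives for the single mRNAs with a printed fold change or an unadjusted p under 0.05, 23 added a call and 4 changed sign, all for the FST Ptpmt1 knockout. For mt-Cytb it ranged from -0.33 to 0.35 with a library left out and was -0.0249 with edgeR and -0.0232 with DESeq2, and for mt-Nd5 it ranged from -0.17 to 0.46. Of 232 alternatives for named nuclear genes, 22 lost a call and 5 changed sign. With a library left out, the PHT Ptpmt1 knockout ranged from -0.016 to 0.080 for Lrpprc, -0.32 to 0.23 for Polrmt and -0.15 to 0.079 for Tfam, and Polrmt in PTGC from -0.043 to 0.32.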
